A study of Mus musculus with 21 samples.

Results

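The LDL receptor family is a group of cell-surface receptors that take up lipoproteins, protease complexes and signalling proteins. The 9 genes described here are Lrp1, Lrp1b, Lrp2, Lrp3, Lrp4, Lrp5, Lrp6, Lrp8 and Vldlr. They were picked by symbol out of 24411 genes in each of 2 tables, and all 9 were found in both. The family was chosen because Lrp1 had the fifth smallest p in the authors' deposited table for the T cell transfer, so the transfer values are given as a description without a test.

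Most of these receptors bind ligands through clusters of small cysteine-rich repeats, carry the bound ligand into the cell and release it in acidic endosomes through a propeller-shaped domain. In brain, Lrp1 clears apolipoprotein E particles, amyloid beta and protease-inhibitor complexes in neurons, glia and vessel walls. Vldlr and Lrp8 (also called ApoER2) pass the reelin signal to the adaptor Dab1, Lrp4 binds agrin, and Lrp5 and Lrp6 are Wnt co-receptors. Lrp2 (megalin) is an uptake receptor of epithelia that include the choroid plexus and ependyma.

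Hippocampal RNA of 21 male mice, labelled wild type, was sequenced, in a transfer and a depletion experiment. For the transfer, B6.SJL-Ptprca Pepcb/BoyJ recipients aged 4 months received a CD8a antibody on days -11 and -7, and then CD8+ T cells of C57BL/6J donors by tail vein. The 5 aged-donor recipients got cells from donors of 22 to 28 months and the 6 young-donor recipients from donors of 3 to 4 months. Both groups had received the antibody before the cells. For the depletion, mice of 22 to 24 months were given the CD8a antibody (n = 5) or rat IgG2b (n = 5) every 4 days. The tissue was the hippocampus of 1 hemisphere from perfused mice, so fewer cells of a type and less RNA per cell cannot be told apart. Libraries held 12361933 to 15055422 reads in aged-donor recipients and 11232442 to 14911138 in young-donor recipients. Antibody-treated libraries held 9957822 to 12136146, and IgG2b libraries 11103024 to 14375029. Neuronal markers (8 genes) summed to 116101 to 186450 normalized counts in every library. Cd8a itself had 0 reads summed over the aged-donor libraries against 1 over the young-donor libraries, and 14 reads over the CD8a antibody libraries against 10 over the IgG2b libraries. These counts were too low to check the labels.

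The family members have long transcripts. Coordinates are for mm10, from the GENCODE annotation, and lengths are of the longest annotated transcript. Lrp1 lies at chr10:127538161-127621148 on the minus strand and has 89 exons in a transcript of 14888 bases. Its closest relative Lrp1b lies at chr2:40595246-42653624 (16294 bases), and Lrp2 at chr2:69424340-69586065 (15460 bases). The other lengths are 9368 bases for Lrp6 (chr6:134446476-134566965), 8893 for Lrp5 (chr19:3584828-3686564), 7971 for Vldlr (chr19:27216484-27254231), 7926 for Lrp4 (chr2:91457511-91513779), 6627 for Lrp8 (chr4:107802261-107876840) and 4147 for Lrp3 (chr7:35200027-35215498). Among the tested genes of the transfer table with a known length, the longest 10% began at 6952 bases, and 7 of the 9 members were in it. Lrp8 and Lrp3 were the exceptions.

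The promoters of Lrp1 and Lrp3 are shown because these were the members with the highest levels, one at the long and one at the short end of the family. Both are the 250 bases before the RefSeq start (build GRCm38.p6), on the minus strand, at chr10:127621149-127621398 and chr7:35215346-35215595. Capitals mark the GC box, GGGCGG or CCGCCC on the other strand.
Lrp1: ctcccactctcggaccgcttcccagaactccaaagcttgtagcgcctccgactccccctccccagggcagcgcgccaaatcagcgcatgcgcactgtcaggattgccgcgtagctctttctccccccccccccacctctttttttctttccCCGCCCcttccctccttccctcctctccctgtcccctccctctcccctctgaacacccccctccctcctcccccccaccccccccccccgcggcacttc
Lrp3: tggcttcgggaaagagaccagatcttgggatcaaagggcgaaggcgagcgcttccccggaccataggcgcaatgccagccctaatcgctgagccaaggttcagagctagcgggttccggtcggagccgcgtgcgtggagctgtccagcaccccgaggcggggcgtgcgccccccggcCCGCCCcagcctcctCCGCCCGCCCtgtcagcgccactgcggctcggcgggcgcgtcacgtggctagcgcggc
The Lrp1 window held 1 GC box and 67.2% G or C, and the Lrp3 window held 3, of which a pair overlap, and 71.2% G or C. Of all 32851 promoter windows of this length, 32.7% held a GC box and the median G or C content was 52.4%. Neither held TATAAA on either strand (12.4% of windows). Lrp2, Lrp8 and Vldlr also had windows in the RefSeq table.

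Per kilobase of transcript, Lrp1 and Lrp3 stood at the top of the family and Lrp2 at the bottom in all 4 groups. Levels are normalized counts (reads divided by 1 size factor per library) per kilobase of the longest transcript. Lrp1 had a level of 249 ± 28.7 in aged-donor recipients and 329 ± 34.5 in young-donor recipients (SD, n = 5 and 6). In the depletion table it had 223 ± 51.9 with the CD8a antibody and 224 ± 23.8 with IgG2b (SD, n = 5 each). Lrp3, a less studied member whose ligands are poorly known, had 239 ± 17.9 in aged-donor recipients and 240 ± 14.9 in young-donor recipients. It had 213 ± 29.1 with the CD8a antibody and 219 ± 12.1 with IgG2b. The ranges of Lrp1 and Lrp3 overlapped in every group but the young-donor recipients, where Lrp1 lay above Lrp3 in all 6 libraries. With the median length of a gene's annotated transcripts in place of the longest, Lrp2 was still last in young-donor recipients, and Lrp6, Vldlr and Lrp8 lay above Lrp3. Lrp1 was first, but its median length is 772.5 bases, against 14888 for its longest transcript. That short length raises its level per kilobase, so its first place there is no check on its rank. The 2 tables were normalized apart, so levels are not compared between them.

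The reelin receptors came next. Vldlr had a level of 165 ± 31.2 per kilobase in aged-donor recipients and 166 ± 15.2 in young-donor recipients, and Lrp8 had 141 ± 11.3 and 154 ± 12.3 in the same groups. Their ranges overlapped with each other in all 4 groups. Lrp4 (82.6 ± 13.4 in aged-donor and 89.2 ± 14.9 in young-donor recipients) and Lrp6 (81.8 ± 9.07 and 88.0 ± 8.61) followed, with overlapping ranges. Lrp1b (27.0 ± 5.88 and 32.6 ± 7.94) and Lrp5 (22.3 ± 3.11 and 23.3 ± 2.77) were lower and also overlapped. Lrp2 had 1.31 ± 0.647 in aged-donor recipients and 0.996 ± 0.615 in young-donor recipients. The order of these pairs was the same in the depletion table, although within 3 of them the leading gene differed between groups, and with the CD8a antibody the ranges of Vldlr and Lrp4, and of Lrp6 and Lrp5, also overlapped.

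**Figure D1:**
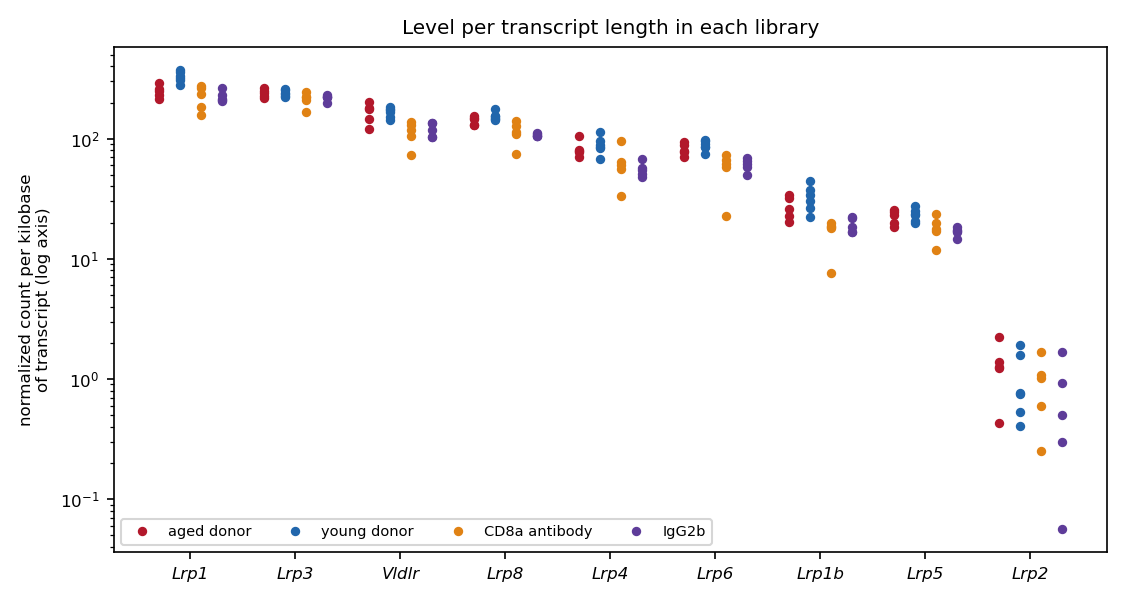
Normalized count per kilobase of the longest transcript (log axis) of the 9 members in each library, by group. Lrp1 and Lrp3 lie at the top in all groups (Lrp1 249 in aged-donor and 329 in young-donor recipients on average) and Lrp2 lies near 1.

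The transfer asks whether CD8+ cells from aged donors alter the young hippocampus. Lrp1, picked for its small p in this contrast, was the member furthest below its control. Its normalized counts were 3431, 4315, 3741, 3857 and 3198 in the aged-donor recipients and 4773, 4149, 4915, 4619, 5382 and 5557 in the young-donor recipients. All 5 aged-donor libraries lay below the young-donor median, and the groups overlapped only because aged-donor replicate 2 lay above young-donor replicate 2. The means were 3708 ± 427 and 4899 ± 514 (SD), a difference of -24.3% and a log2 difference of -0.40 (SE 0.10). No gene passed limma's test in this table (0%, 0 of 14162, adjusted p under 0.05, with 1169 at an unadjusted p under 0.05), so 0 of 9 members did. By edgeR 0 genes passed, with 1257 at an unadjusted p under 0.05, and by DESeq2 0, with 1478. Leaving out each library in turn gave log2 differences of -0.46 to -0.35 for Lrp1. Because Lrp1 was picked for a small p in this contrast, its range is not weighed against those of the other members. Their ranges were -0.36 to -0.16 for Lrp1b, 0.18 to 0.74 for Lrp2, -0.043 to 0.026 for Lrp3 and -0.20 to -0.036 for Lrp4. They were -0.12 to 0.0033 for Lrp5, -0.16 to -0.057 for Lrp6, -0.16 to -0.085 for Lrp8 and -0.10 to 0.080 for Vldlr. Vldlr lay above 0 without aged-donor replicate 3 or 5 or young-donor replicate 5.

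The relatives of Lrp1 with the largest transcripts differed from each other. Lrp1b, a receptor with an extracellular part much like that of Lrp1 and slower endocytosis, had 425, 522, 369, 555 and 332 normalized counts in aged-donor recipients and 366, 490, 433, 556, 727 and 610 in young-donor recipients. The groups overlapped over most of their range, with 4 of 5 aged-donor libraries below the young-donor median and a log2 difference of -0.26 (SE 0.17). Lrp2 had 7, 39, 19, 19 and 21 reads in aged-donor recipients and 12, 6, 10, 8, 30 and 27 in young-donor recipients. Its log2 difference was 0.41 (SE 0.45). Choroid plexus markers had a higher mean in aged-donor recipients for 10 of 10 genes, with sums of 2309 to 54199 normalized counts against 2959 to 35023 in young-donor recipients. All 10 had reads in both groups, and with their score as a covariate the Lrp2 log2 difference was 0.43.

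Among the signalling receptors the transfer groups lay closer together. The reelin receptor Vldlr had 1402, 1600, 967, 1438 and 1164 normalized counts in aged-donor recipients and 1209, 1381, 1144, 1333, 1461 and 1401 in young-donor recipients, a log2 difference of -0.02 (SE 0.12). Lrp8 had 1019, 976, 857, 972 and 857 in aged-donor recipients and 1032, 968, 1029, 1173, 950 and 978 in young-donor recipients, a log2 difference of -0.13 (SE 0.08). For Vldlr both the highest and the lowest library were aged-donor recipients, and for Lrp8 4 of 5 aged-donor libraries lay below the young-donor median. The Wnt co-receptor Lrp6 had 878, 823, 719, 746 and 664 in aged-donor recipients and 694, 793, 798, 852, 919 and 890 in young-donor recipients, a log2 difference of -0.11 (SE 0.09). Lrp5 ranged over 162 to 228 in aged-donor recipients and 176 to 243 in young-donor recipients, with a log2 difference of -0.07 (SE 0.12). Lrp4, the agrin receptor, ranged over 558 to 835 in aged-donor recipients and 542 to 898 in young-donor recipients, with a log2 difference of -0.11 (SE 0.12). Lrp3 ranged over 896 to 1086 in aged-donor recipients and 925 to 1070 in young-donor recipients, with a log2 difference of -0.01 (SE 0.08). In all 9 members the 2 groups overlapped. The share of all tested genes whose groups overlap was not counted, so this is not read as a trait of the family.

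**Figure D2:**
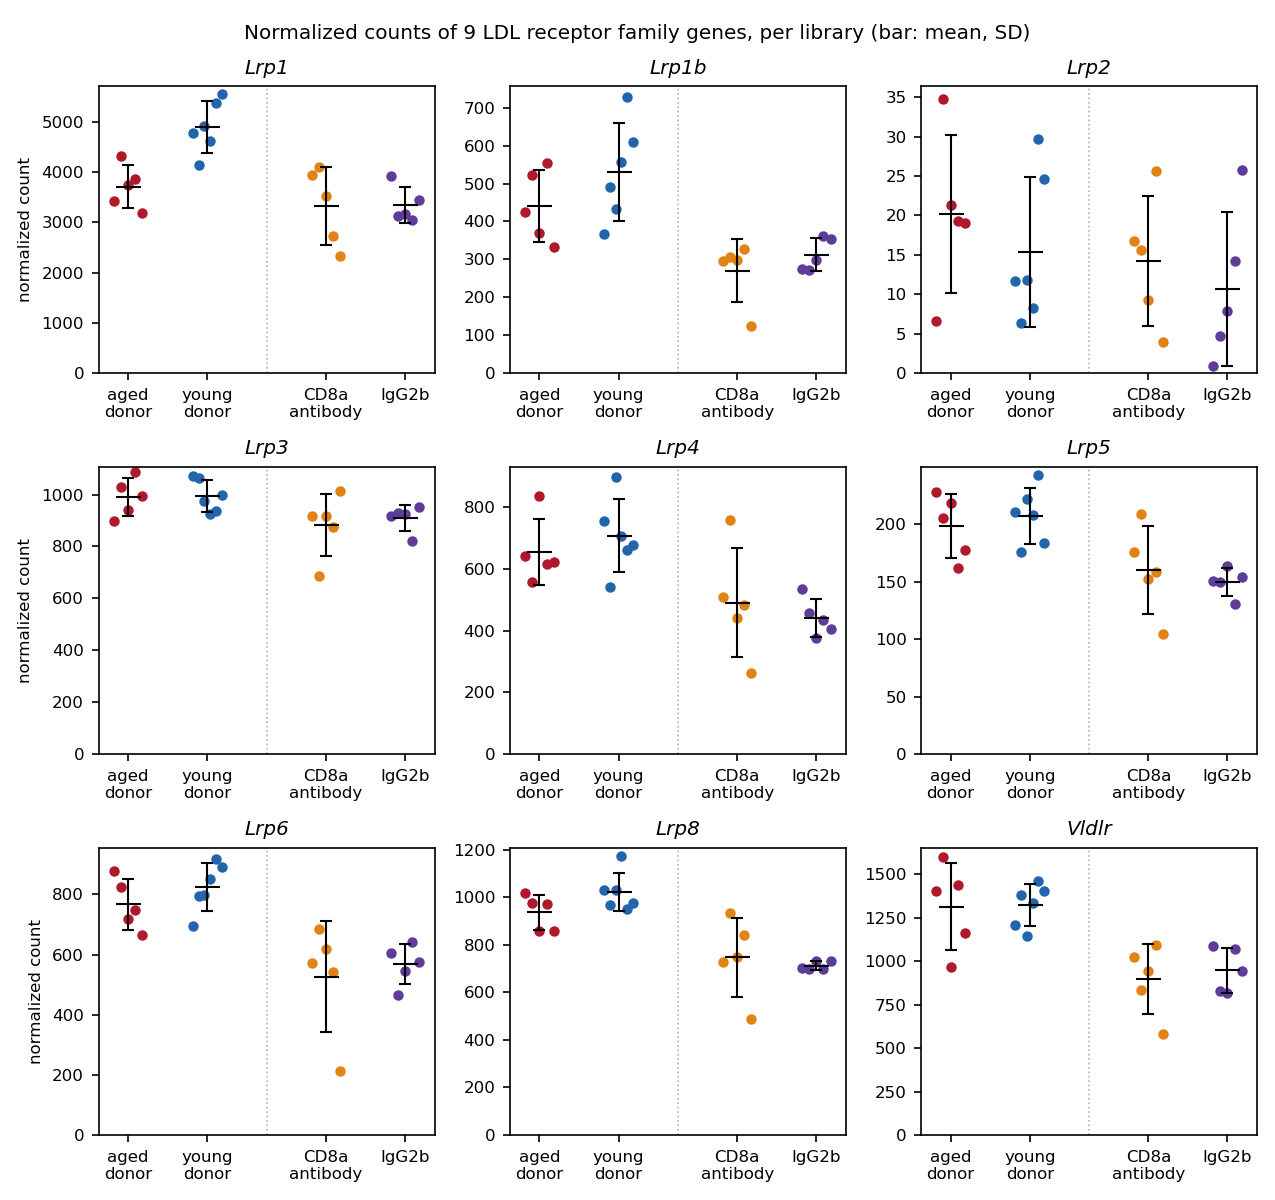
Normalized count (linear axis from 0) of the 9 members in each library of both tables, by group, with bars for the group mean and SD. Lrp1, which was picked for its small p in the transfer, has aged-donor libraries (3198 to 4315) that all lie below the young-donor median. CD8a antibody replicate 5 lies lowest in its group for 8 of 9 members.

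Members with long transcripts stood in a table in which long transcripts as a whole lay lower in aged-donor recipients. Across 14065 genes, the log2 difference was lower the longer the transcript (Spearman rho -0.494, across genes, which are not independent replicates). The shortest 10% had a median log2 difference of 0.19 and the longest 10% one of -0.15, with 87.8% of the longest 10% (1235 of 1407 genes) lower in aged-donor recipients. Lrp1 lay below the trend at its own length, which was -0.22. With the median length of its annotated transcripts (772.5 bases) the trend was 0.04, and Lrp1 lay -0.45 from it. In the longest 10%, 74 of the 1407 genes were at or below the Lrp1 value, with Lrp1 itself among them. Lrp1 was picked for a small p in this contrast, so a low place among these genes was set by that choice and nothing is concluded from it. Over the family 8 of 9 members lay lower, with a median of -0.11, against 51.0% of all tested genes and a median of -0.00.

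**Figure D3:**
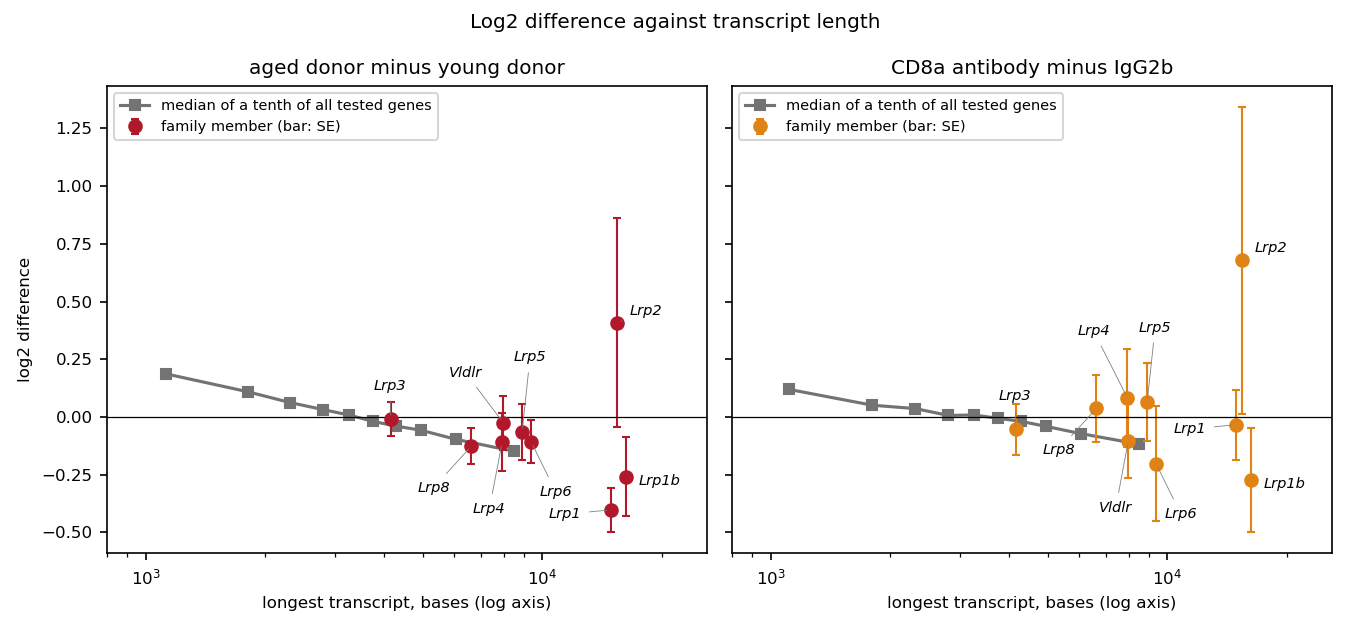
Log2 difference against length of the longest transcript (log axis) for the 9 members (SE bars) over the medians of all tested genes in 10 length classes, in the transfer table (left) and the depletion table (right). Lrp1, which was picked for its small p in the transfer, stands at -0.40 there, below the median of the longest 10% (-0.15).

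The length trend was also read in each library. The slope of each gene's log2 deviation on transcript length, per doubling of length, was -0.040, -0.000, -0.098, 0.041 and -0.202 in the aged-donor libraries. It was 0.023, 0.050, -0.024, 0.107, 0.060 and 0.082 in the young-donor libraries. The groups overlapped, with aged-donor replicates 2 and 4 within the young-donor range and aged-donor replicate 5 the lowest. The means were -0.060 ± 0.095 in aged-donor recipients and 0.050 ± 0.046 in young-donor recipients (SD). Rn45s, the ribosomal RNA precursor, took 0.747 to 1.34% of reads in aged-donor recipients and 0.350 to 0.795% in young-donor recipients, and its part in the slopes was not tested.

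**Figure D4:**
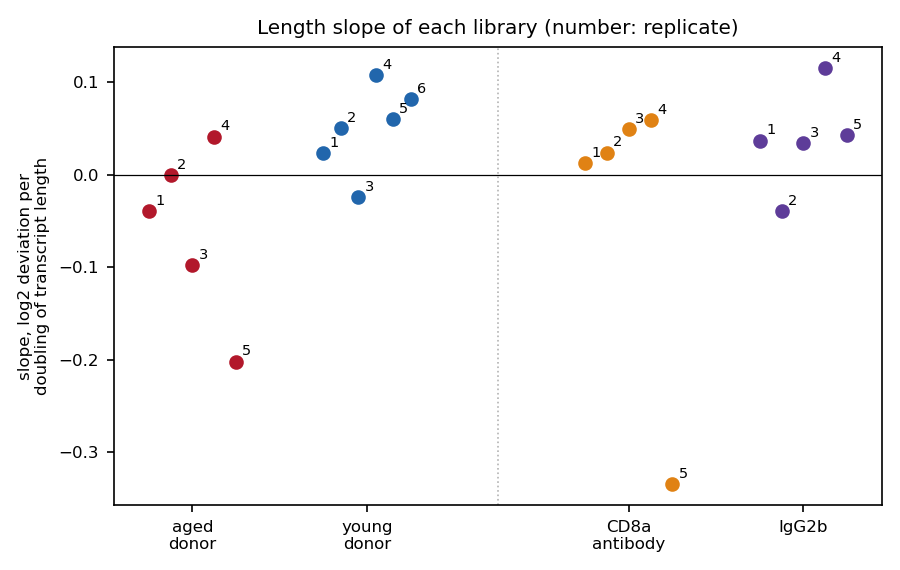
Slope of log2 deviation on transcript length in each library, in log2 units per doubling of length. CD8a antibody replicate 5 (-0.335) and aged-donor replicate 5 (-0.202) have the most negative slopes.

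With the length trend removed within each library, Lrp1 lay closer to its control. Lrp1 then had log2 values of 11.79, 12.08, 12.02, 11.85 and 12.10 in aged-donor recipients and 12.36, 11.92, 12.30, 12.01, 12.17 and 12.16 in young-donor recipients. The groups overlapped more than before, and the log2 difference was -0.19 (SE 0.09), with -0.23 to -0.15 when each library was left out in turn. Lrp1b moved to -0.03 (SE 0.11), Lrp6 to 0.05 (SE 0.07), Lrp8 to -0.02 (SE 0.07), Lrp4 to 0.02 (SE 0.14), Lrp5 to 0.08 (SE 0.13), Vldlr to 0.11 (SE 0.10), Lrp3 to 0.02 (SE 0.07) and Lrp2 to 0.63 (SE 0.44). In this fit 3 of 9 members lay lower in aged-donor recipients, with a family median of 0.02. Lrp1, which was picked from this contrast, was the lowest of the 9.

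**Figure D5:**
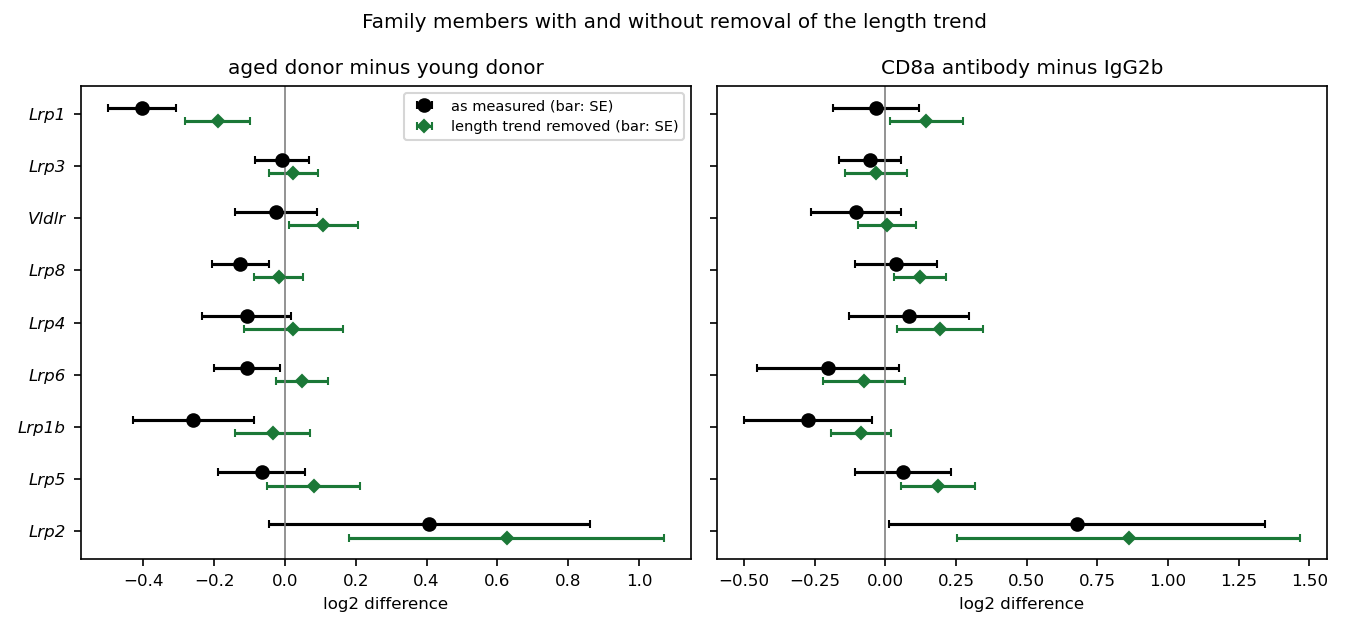
Log2 difference (SE bars) of each member as fitted and with the transcript length trend removed per library, in both tables. In the transfer table Lrp1 moves to -0.19 and the other members other than Lrp2 lie between -0.03 and 0.11.

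Group means of cell type markers also differed beside Lrp1, which is expressed in neurons, glia and cells of the vessel wall. The marker sums of the 2 groups overlapped for every list given here, and no marker was called. Fibroblast markers had a lower mean in aged-donor recipients for 8 of 8 genes, with sums of 1318 to 4431 normalized counts against 1443 to 6752 in young-donor recipients. Pericyte and smooth muscle markers were also lower for 8 of 8, with sums of 1493 to 2652 against 1898 to 3904. Neuronal markers were lower for 8 of 8, with sums of 137516 to 186450 against 153837 to 173855. Endothelial markers were lower for 6 of 8, with sums of 2264 to 3150 against 2352 to 4139. Other lists lay higher in aged-donor recipients, with oligodendrocyte markers higher for 8 of 8 (49572 to 89945 against 42787 to 75487), ependymal markers for 7 of 7 (304 to 850 against 261 to 496) and microglia markers for 7 of 8 (4898 to 7388 against 4818 to 6838). Astrocyte markers were higher for 4 of 8, with sums of 64454 to 111385 against 68433 to 105258. All markers on these lists had reads in both groups, and their part in the Lrp1 difference was not tested. With a choroid plexus score as a covariate the Lrp1 log2 difference was -0.40, and with the ventral minus dorsal marker level of the hippocampus it was -0.42.

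In the depletion experiment, which asks what removal of CD8+ cells alters in the aged hippocampus, no member of the family passed the test. limma called 0.00717% of genes (1 of 13939, adjusted p under 0.05) and 0 of 9 members. At an unadjusted p under 0.05 stood 1180 of all genes (8.47%) and 0 of 9 members. DESeq2, which called 92 of 14024 genes (0.656%), also called 0 of 9 members. limma called 0.00722% of genes with the length trend removed, 0.00852% with a mean of at least 50 and 0.0215% with the choroid plexus covariate, in each case with 0 members among them, as with the ventral minus dorsal covariate (0.66%). Group means of markers of other cells and of hippocampal region differed in this table too. Oligodendrocyte markers had a higher mean with the CD8a antibody for 8 of 8 genes, with sums of 49121 to 94378 normalized counts against 46578 to 60035 with IgG2b. Microglia markers were higher for 8 of 8, with sums of 6510 to 7706 against 5487 to 6159 that did not overlap. Ventral hippocampus markers were lower with the antibody for 6 of 6, with sums of 1058 to 1926 against 2407 to 3032, also without overlap. Dorsal hippocampus markers were lower for 2 of 4, with sums of 2642 to 4508 against 3471 to 4391. The part of these lists in the members' values was not tested.

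Lrp1 had 3951, 4098, 3535, 2723 and 2328 normalized counts with the CD8a antibody and 3921, 3126, 3171, 3052 and 3437 with IgG2b. The antibody group held both the highest and the lowest libraries. The means were 3327 ± 773 and 3342 ± 355 (SD, n = 5 each), with a log2 difference of -0.03 (SE 0.15, 95% interval -0.36 to 0.29, limma adjusted p = 0.967). With the length trend removed the log2 difference was 0.14 (95% interval -0.13 to 0.42, limma adjusted p = 0.754). Without antibody replicate 5, and with no removal of the length trend, it was 0.087. Its sign thus depended on 1 library as well as on the treatment of length. The difference between the 2 experiments was not tested, since they were normalized apart and used mice of different age and treatment.

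Lrp1b had 296, 306, 299, 326 and 124 normalized counts with the CD8a antibody and 274, 272, 299, 362 and 353 with IgG2b. Apart from antibody replicate 5 the libraries of both groups lay in 1 range. The log2 difference was -0.27 (95% interval -0.76 to 0.21, limma adjusted p = 0.777), and without that library it was -0.01 (limma adjusted p = 0.969). Lrp2 had 14, 14, 9, 23 and 4 reads with the CD8a antibody and 1, 5, 9, 17 and 24 with IgG2b, groups that overlapped throughout. Its log2 difference was 0.68 (95% interval -0.74 to 2.10, limma adjusted p = 0.812). Choroid plexus markers had a higher mean with the CD8a antibody for 10 of 10 genes, with sums of 845 to 32454 normalized counts against 2080 to 27626 with IgG2b. With that score as a covariate the Lrp2 log2 difference was 0.78.

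The reelin receptors did not separate the groups. Vldlr had 1027, 836, 946, 1094 and 581 normalized counts with the CD8a antibody and 1086, 826, 815, 1070 and 944 with IgG2b (log2 difference -0.10, 95% interval -0.44 to 0.24, limma adjusted p = 0.892). Lrp8 had 726, 934, 747, 840 and 490 with the CD8a antibody and 702, 698, 733, 697 and 730 with IgG2b (log2 difference 0.04, 95% interval -0.27 to 0.35, limma adjusted p = 0.963). The antibody libraries of Lrp8 spread over a range of 490 to 934, against 697 to 733 with IgG2b. Without antibody replicate 5 the log2 differences were 0.04 for Vldlr and 0.18 for Lrp8 (limma adjusted p = 0.895 and 0.406).

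The Wnt co-receptors, the agrin receptor and Lrp3 did not separate the groups either. Lrp6 had 573, 686, 618, 543 and 214 normalized counts with the CD8a antibody and 606, 466, 546, 643 and 574 with IgG2b. Its log2 difference was -0.20 (95% interval -0.74 to 0.33, limma adjusted p = 0.857) and 0.10 without antibody replicate 5 (limma adjusted p = 0.745). Lrp5 had 176, 209, 152, 159 and 105 with the CD8a antibody and 151, 150, 164, 131 and 155 with IgG2b, with a log2 difference of 0.06 (95% interval -0.30 to 0.42, limma adjusted p = 0.943). Lrp4 had 509, 758, 441, 482 and 264 with the CD8a antibody and 536, 455, 377, 435 and 404 with IgG2b, with a log2 difference of 0.08 (95% interval -0.37 to 0.54, limma adjusted p = 0.941). Lrp3 had 918, 686, 918, 875 and 1014 with the CD8a antibody and 918, 929, 927, 822 and 951 with IgG2b, with a log2 difference of -0.05 (95% interval -0.29 to 0.18, limma adjusted p = 0.923). Without antibody replicate 5 they were 0.21 for Lrp5, 0.29 for Lrp4 and -0.11 for Lrp3.

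Antibody replicate 5 was lowest of its group for 8 of 9 members and highest for Lrp3, the member with the shortest transcript. Its median log2 deviation over the members was -0.59. Its length slope was -0.335, against 0.013 to 0.059 in the other 4 antibody libraries and -0.040 to 0.116 with IgG2b. With the length trend removed, its Lrp1 value of 12.03 was the highest of the 5 antibody libraries, while its Lrp6 value of 8.38 stayed below the 8.99 to 9.29 of the others. The slopes gave no difference between the depletion groups beyond their spread (means -0.038 ± 0.167 with the CD8a antibody and 0.038 ± 0.055 with IgG2b, SD, n = 5 each; two-sided exact permutation p = 0.476 over 252 splits). The rho across 13848 genes was -0.285.

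Partner genes of the family, from lists chosen with earlier results known, included no gene called by limma in either table. In the transfer table, Reln, the secreted ligand of Vldlr and Lrp8, had 572 ± 108 normalized counts in aged-donor recipients and 753 ± 124 in young-donor recipients (SD). Its log2 difference was -0.40, and -0.22 with the length trend removed. Agrn, the ligand of Lrp4, had 1648 ± 142 in aged-donor recipients and 2131 ± 402 in young-donor recipients, with a log2 difference of -0.35, and -0.21 with the length trend removed. Sorl1, a sorting receptor for the amyloid precursor, stood at -0.26, and at -0.09 with the length trend removed. The chaperone Lrpap1 stood at 0.06, the ligands Apoe and Clu at 0.16 and 0.10 and the adaptor Dab1 at -0.13. With the length trend removed they stood at 0.04, 0.02, -0.01 and -0.06, in that order.

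In the depletion table Reln had 349 ± 72.5 normalized counts with the CD8a antibody and 507 ± 104 with IgG2b (SD, n = 5 each). Its log2 difference was -0.54 (SE 0.16, limma adjusted p = 0.331), and -0.39 with the length trend removed (limma adjusted p = 0.429). Ventral hippocampus markers were lower with the antibody for 6 of 6 genes, with sums of 1058 to 1926 against 2407 to 3032. Markers of inhibitory neurons, the main source of Reln in the adult hippocampus, were lower for 6 of 8, with sums of 8757 to 13086 against 12551 to 14241. The part of either list in the Reln values was not tested. The Wnt pathway genes Fzd6 (a frizzled receptor) and Dvl2 (a dishevelled protein) stood at 0.66 and 0.41 (limma adjusted p = 0.324 and 0.372). Lrp10, a relative that traffics between Golgi and endosomes, stood at 0.33 (limma adjusted p = 0.452). Aph1b, a subunit of the gamma-secretase that cuts several of these receptors, stood at -0.42 and Bace1, the beta-secretase, at -0.28 (limma adjusted p = 0.409 and 0.507). Rap1a, a small GTPase downstream of reelin, stood at 0.25, the protease ligand Plat at -0.34 and the adaptor Apbb2 at -0.31 (limma adjusted p = 0.426, 0.622 and 0.603). Agrn was at 0.21, Apoe at 0.20, Clu at 0.15, Dok7 at 0.08, Lrpap1 at -0.08, Sorl1, Lrp11 and the chaperone Mesdc2 each at -0.09 and Dab1 at -0.11, none of them called. With the length trend removed Agrn was at 0.32 (limma adjusted p = 0.395), Apoe at 0.12, Clu at 0.10 and Sorl1 at 0.05.

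By list, the partners lay on both sides of their controls. Of 13 tested reelin pathway genes, 6 lay higher and 7 lower in aged-donor recipients (median -0.01), and 4 higher and 9 lower with the CD8a antibody (median -0.07). Of 12 ligands, 4 lay higher and 8 lower in aged-donor recipients (median -0.10), and 7 higher and 5 lower with the CD8a antibody (median 0.10). Of the Wnt genes, 13 of 26 lay higher in aged-donor recipients and 12 of 25 with the CD8a antibody, with medians of -0.00 in both. The intracellular adaptors were higher for 6 of 10 in aged-donor recipients and 5 of 10 with the CD8a antibody, and the proteases for 4 of 9 and 5 of 9. The relatives were higher for 2 of 6 and 3 of 6, the genes of receptor folding for 2 of 5 and 1 of 5, and the other agrin pathway genes for 0 of 3 and 2 of 2. Over all tested genes 49.0% lay higher in aged-donor recipients and 49.6% with the CD8a antibody.

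Across the 21 libraries, with each group centred on its mean, the genes whose log2 values were most like those of Lrp1 were Sorcs2 (Pearson r 0.86), Larp1 (0.85), Apc2 (0.85), Notch1 (0.84) and Zfp516 (0.83) among 13863 genes. Their longest transcripts ran from 5707 to 9488 bases, and the libraries share the length trend. With the trend removed (13774 genes) they were Glrx5 (0.87), Scaf1 (0.86), Acaa1a (0.85), Srebf2 (0.85) and Gga1 (0.83), with transcripts of 2925 to 5077 bases, and none of the first 5 was among them. Lrp6 had a Pearson r of 0.70 with Lrp1 as fitted (Spearman rho 0.51) and of -0.24 with the trend removed (Spearman rho -0.07). For Lrp1b, the member with the smallest p in the depletion table, the most alike genes were Cacna1e and Myo9a (both 0.95) and Lnp, Mycbp2 and Zmym4 (all 0.94). With the trend removed they were Nrp1 (0.89), Rnf128 (0.88), Col25a1 (0.87), Rabgap1 (0.83) and Clstn2 (0.82). Lrp1 and Lrp1b had a Pearson r of 0.58 as fitted (Spearman rho 0.43) and of -0.45 with the trend removed (Spearman rho -0.51).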

How the data were processed

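Hippocampal RNA of 21 mice was sequenced as strand-specific, polyA-enriched paired-end libraries, per the labels' protocols. The submitters' processing notes name STAR, RSEM, DESeq2 and mm10, with no versions; how reads were counted is not stated there. Each deposited table holds 24411 genes as a normalized signal, the gene's reads divided by 1 size factor per library, per the file headers and the values. All values were whole multiples of 1 step per library (relative tolerance 1e-06), so reads were recovered. The authors' deposited log2 fold changes, Wald scores and p-values, signed control over treated, were used only to say why Lrp1 was noticed.

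Each table was fitted alone with limma 3.58.1 (R 4.3.3, limma-trend) on log2(normalized count + 1), for genes with a mean of at least 10, with Benjamini-Hochberg adjustment over all tested genes and calls at an adjusted p under 0.05. Log2 differences are on that scale, on which low genes appear to change less than they do. Alternatives were edgeR 4.0.16, DESeq2 1.42.0 and limma-voom on the recovered reads, other pseudocounts and filters, marker covariates, leaving out each library, and removal per library of the lowess trend (span 0.3) of the log2 deviation from the gene mean on log2 transcript length. Lengths came from the GENCODE M21 annotation for 24040 genes (98.5%). The fit was tested on simulated data. Replicates are separately named samples, numbered in accession order; the labels do not say more, and p-values measure the spread between them. Read floors (3 reads) cover counting error only.

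The members and lists were chosen with earlier results of these data known. Named genes were the 9 members, 8 fixed partners, the 2 partners with the smallest depletion p per list, and the 5 genes most like Lrp1 and most like the member with the smallest depletion p; some genes that the rule takes are left out of the text. GC box and other matches describe letters only. Promoter windows of some members were not used here.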

Additional observations from a re-analysis of the deposited data

Results flagged for a closer look

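In 40 sets of 1 measure in 1 group of 5 or 6 libraries (9 members and the length slope in 4 groups), 4 had a library far from the others, and chance alone gives about 1 in 20. CD8a antibody replicate 5 accounted for 3 of them. Its Lrp1b value was 124 normalized counts, against 296 to 326 in the other antibody libraries. Its Lrp6 value was 214, against 543 to 686. Its transcript length slope was -0.335 log2 units per doubling, against 0.013 to 0.059. The last was Lrp3 in IgG2b replicate 4, at 822 normalized counts against 918 to 951 in the other IgG2b libraries.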

How the results depend on the processing

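No paired analysis was possible because the replicate numbers follow the order of the sample records and the titles' own numbers are not shared by the compared groups. Over all results and settings, 604 values stayed within their limit, 54 moved beyond it and 35 tested depletion values changed sign. The limit was the same direction and call for tested members, and 1 SD for transfer members and levels per kilobase. Counts of called genes and members were held to a ratio, and the length rho to a fixed margin. The transfer members have no test and were held to the SD alone; by sign, 69 of their 287 log2 differences changed, against 35 of 269 in the depletion table. Under every setting run 0 members were called. In the depletion table, where limma called 1 gene, DESeq2 called 92, no filter on the mean 0, the choroid plexus covariate 3, the ventral minus dorsal covariate 92, leaving out each library 0 to 25, and leaving out each library with the length trend removed 1 to 67; the 25 and 67 were without antibody replicate 5. The transfer table gave 0 genes under every setting. Over the other settings that kept every library, depletion log2 differences ran from -0.54 to -0.086 for Lrp1b and from -0.40 to 0.0056 for Vldlr. Those for Lrp6 ran from -0.36 to -0.074, for Lrp3 from -0.17 to -0.026 and for Lrp1 from -0.12 to 0.14. Ranges were -0.060 to 0.86 for Lrp2, -0.034 to 0.27 for Lrp4, 0.00076 to 0.19 for Lrp5 and -0.014 to 0.12 for Lrp8. Depletion log2 differences changed sign for Lrp1 with edgeR (0.0012), with the length trend removed (0.14) and with the ventral minus dorsal covariate (0.027), for Vldlr with the length trend removed (0.0056), for Lrp4 (-0.034) and Lrp8 (-0.014) with the choroid plexus covariate, and for Lrp2 with the ventral minus dorsal covariate (-0.060). Leaving out each library gave -0.12 to 0.087 for Lrp1, -0.11 to 0.034 for Lrp3, -0.093 to 0.29 for Lrp4, -0.042 to 0.21 for Lrp5, -0.32 to 0.095 for Lrp6, -0.050 to 0.18 for Lrp8 and -0.18 to 0.044 for Vldlr. With the length trend also removed, an alternative chosen after seeing the data, the ranges were 0.074 to 0.26 for Lrp1, -0.11 to 0.057 for Lrp3, 0.11 to 0.23 for Lrp5, -0.14 to 0.081 for Lrp6 and -0.044 to 0.064 for Vldlr. The length rho was -0.289 in the transfer table and -0.199 in the depletion table with median transcript lengths, and -0.567 in the transfer table with a mean of at least 50. The annotated transcripts of a gene include short fragments, and their median length is 772.5 bases for Lrp1. With median lengths the young-donor levels per kilobase were 6342 for Lrp1, 206 for Lrp1b, 4.68 for Lrp2, 333 for Lrp3 and 202 for Lrp4. They were 51.8 for Lrp5, 446 for Lrp6, 387 for Lrp8 and 406 for Vldlr. The order below Lrp1 thus depends on the length used, and the short median length of Lrp1 makes its first place here no check. The cause was not tested. Lrp2 rests on 1 to 39 reads per library.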
